A study of Mus musculus with 16 samples.

Results

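Liver metastases of mice given KN046 alone were compared with those of control mice. The comparison used the raw gene counts of 4 KN046 mice and 4 control mice, 8 of the 16 mice sequenced, taken by their treatment labels. All were wild-type male C57BL/6 mice that received MC38 cells in 40 μl of PBS into the inferior hemispleen at 6 weeks of age. KN046, an antibody against PD-L1 and CTLA-4, was given intraperitoneally at 10 mg/kg 2 times a week, and the control mice received PBS. The other 8 mice received the TGF-β receptor I inhibitor SB525334 at 20 mg/kg by oral gavage daily, alone or with KN046. They enter below through the shared estimate of the spread and a comparison of KN046 with SB525334. For some genes and lists their levels or differences from control are also given. The tumors derive from 1 cell line, the RNA is of whole tumor tissue, and the labels do not say whether mice shared a cage, a surgery day or a library batch. The question was which genes differed in metastases under dual checkpoint antibody treatment without a TGF-β inhibitor.

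PD-L1 on tumor and myeloid cells binds PD-1 on T cells and dampens signaling from the T cell receptor, while CTLA-4 competes with CD28 for CD80 and CD86. Activated T cells and natural killer cells kill through perforin and granzymes and release interferon-γ, which acts through transcription factors such as IRF1 to induce guanylate-binding proteins, immunity-related GTPases, CXCR3 chemokines and antigen presentation genes. The granule proteins of neutrophils are transcribed mainly in precursors in the bone marrow, and S100a8 and S100a9 also in mature cells. MC38 is a mouse colon adenocarcinoma line, and the liver that surrounds these metastases is rich in hepatocytes, Kupffer cells and sinusoidal endothelium.

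The counts assigned to genes summed to 20042850 to 21802474 per control mouse and 19241084 to 19893033 per KN046 mouse. Levels are given as CPM, the usual counts-per-library-size unit, taken on the TMM-scaled library size, and 13968 of 21959 listed genes passed the filter on low counts and were tested. Control mice 1 and 2 were close to each other, as were control mice 3 and 4, with chi-square values per gene whose medians were 1.252 and 0.9561, against 2.819 or more for every other pair of mice in a group. In these pairs 24.78% and 18.14% of genes exceeded the 95% point of chi-square, more than counting error gives, which libraries prepared from the same tissue could also do. Whether each pair is a pair of mice or a pair of libraries of the same tissue cannot be told apart from these counts. The 4 were treated as separate mice, as they are labelled, and if they are not, the p-values of the 16-mouse fit are too small. Results with each pair merged are given beside the main ones. Liver RNA was present in both groups. Albumin (Alb) averaged 8185.5 ± 268.2 CPM (SD, n = 4) in control and 8342.4 ± 2183.3 in KN046 metastases, and the collagen gene Col3a1 4767.9 ± 201.0 and 4249.2 ± 863.0.

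KN046 metastases had lower levels of neutrophil granule, T cell, cytotoxic and interferon-γ response genes than control metastases, and higher levels of a few genes of fatty acid oxidation and lipid droplets. edgeR's quasi-likelihood test across the 13968 genes, with Benjamini-Hochberg adjustment at 0.05, called 559 genes. Of these 224 were higher with KN046 (1.60%) and 335 lower (2.40%). The falls were larger, with a median absolute log2 fold change of 0.97 against 0.58 for the rises, and 54 falls but 8 rises exceeded 4-fold. Without any test, the 4 KN046 mice lay all above the 4 control mice for 690 genes (4.94%) and all below for 929 genes (6.65%). Across all genes tested the median log2 fold change was -0.03.

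**Figure D1:**
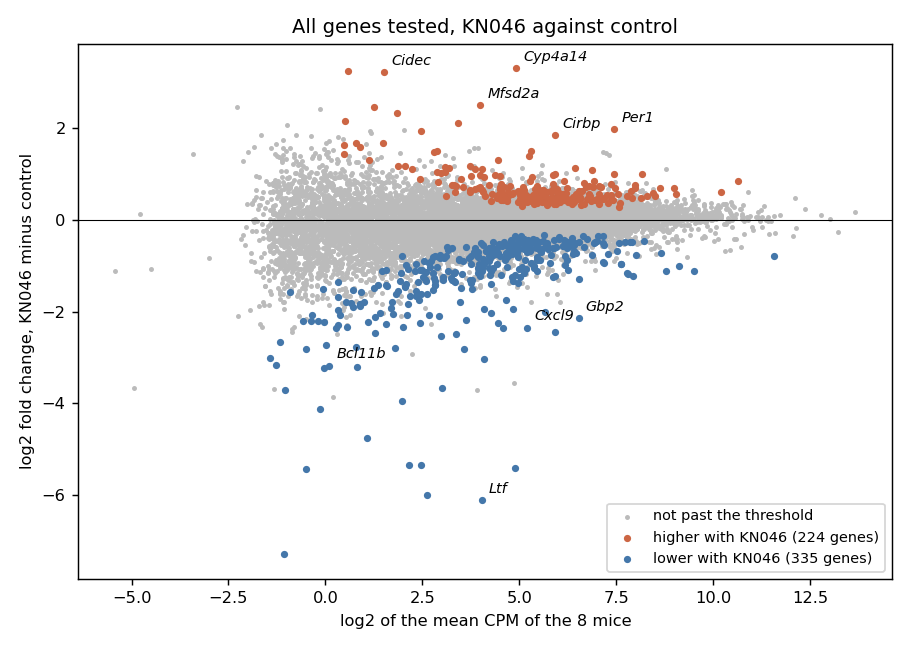
Each point is 1 of the 13968 genes tested, with the log2 of its mean CPM over the 8 mice on the x axis and the log2 fold change of KN046 minus control on the y axis. The 335 genes called lower (blue) reach farther from 0 than the 224 called higher (orange).

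The number of calls depended on the control pairs and on single mice. With each close pair merged into 1 sample, edgeR called 0 genes (1844 at an unadjusted p under 0.05) and DESeq2 called 53 higher and 86 lower, all of them among the main calls. With the 8 mice fitted alone, 12 were higher and 63 lower. With both changes 0 were higher and 9 lower, namely Ltf, Camp, Ngp, Mpo, Elane, Ctsg, Cd177, S100a8 and S100a9. DESeq2 on the 16 mice called 588 higher and 662 lower, with 224 and 329 of the main calls among them. Leaving out KN046 mouse 2 gave 923 higher and 1173 lower, whereas leaving out KN046 mouse 1 gave 10 and 11 and KN046 mouse 3 gave 29 and 31.

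**Figure D2:**
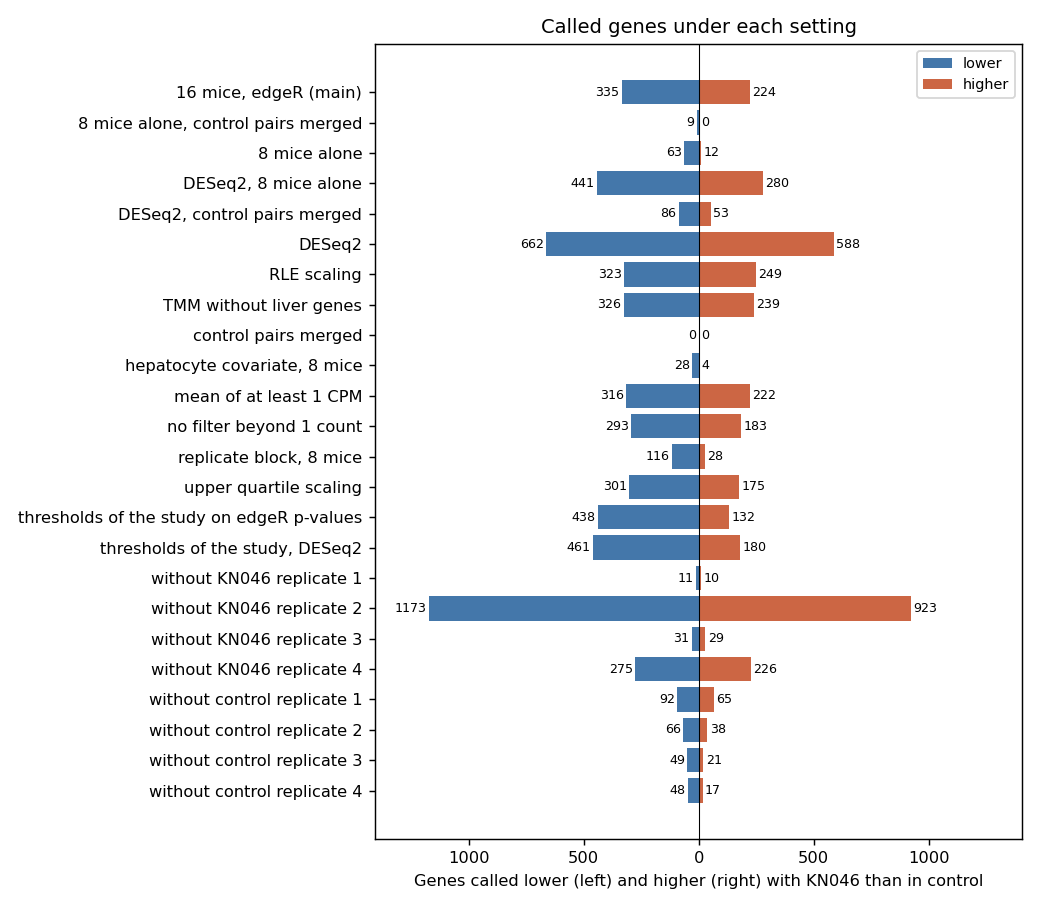
Bars give the number of genes called lower (left, blue) and higher (right, orange) with KN046 than in control under each setting, at an adjusted p of 0.05 except for the thresholds of the study, which are an unadjusted p of 0.05 and a 2-fold difference. The 16-mouse fit called 335 lower and 224 higher, and with the control pairs merged edgeR called 0.

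Neutrophil granule genes fell most. Of the 13 granule genes tested 11 fell and none rose, and the list's median log2 fold change was -4.75. Ltf encodes lactoferrin of the secondary granules, Ngp and Camp the neutrophilic granule protein and cathelicidin, and Mpo and Elane the myeloperoxidase and elastase of the primary granules. Ltf (ENSMUSG00000032496), on GRCm39 at chr9:110848339-110871835, stood at 33.6, 34.3, 29.7 and 31.1 CPM in the 4 control mice and at 0.32, 0.583, 0.782 and 0.156 CPM in the 4 KN046 mice. Every KN046 mouse was far below every control mouse. The log2 fold change of Ltf was -6.11 ± 1.06 (SE), with an adjusted p of 0.0136.

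Ngp gave 58.2, 63.0, 52.8 and 55.9 CPM in control and 0.746, 0.535, 2.96 and 1.2 CPM in KN046 mice, a log2 fold change of -5.42 ± 1.17 and an adjusted p of 0.0239. Elane lay between 7.84 and 9.23 CPM in control and between 0.0559 and 0.34 CPM with KN046 (-5.35 ± 0.96, adjusted p = 0.0151), and Mpo between 9.33 and 12.9 and between 0.104 and 0.486 CPM (-5.35 ± 0.88, adjusted p = 0.0117). Camp, Ctsg, which encodes cathepsin G, Ms4a3, a gene of granulocyte precursors, and Prtn3, which encodes proteinase 3, fell by 6.00, 4.75, 4.13 and 3.67 on the log2 scale. Prtn3 overlaps Plppr3 on the opposite strand. Fcnb, which encodes ficolin B, had 2 counts in all 4 KN046 mice against 116 in control, a ratio of 53.5 with a 95% counting interval of 14.5 to 447.3.

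Not every neutrophil gene moved this way. Lcn2, which encodes the siderophore-binding lipocalin 2 and is also transcribed by epithelium and hepatocytes, was at 85.3 to 285.5 CPM with KN046 and 101.7 to 201.0 in control (log2 fold change -0.08, adjusted p = 0.956). S100a8 and S100a9, the calprotectin subunits, averaged 27.8 and 53.8 CPM in control and 2.13 and 4.61 CPM with KN046, with no overlap between the groups, and missed the threshold in the 16-mouse fit (adjusted p = 0.0619 and 0.0719). Of the 13 mature neutrophil genes 1 fell, Il1b, and the median was -0.93. As a list they were lower with KN046, with sums of 204.9 to 242.9 CPM in control and 81.7 to 147.8 with KN046. Of the 13, 10 were below 0 and 3 above. In 6 every KN046 mouse was below every control mouse, and in 1, Hdc, above, against 6.65% and 4.94% of all genes tested. DESeq2 over 16 mice called 4 of them lower, and edgeR with the 8 mice alone 3. Mmp9, a gelatinase that macrophages also make, was at 56.7 ± 3.52 and 50.3 ± 25.2 CPM. In these bulk samples fewer cells of a type and less RNA per cell cannot be told apart.

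With the 8 mice fitted alone 12 of the 13 granule genes passed, and with the control pairs merged in the 16-mouse fit 0 did. DESeq2 over 16 mice called 5 of them and gave no adjusted p for some others, Ltf, Ngp and Camp among them. The mice of the SB525334 group, compared with the same control mice, had log2 fold changes of -7.91 for Ltf and -8.11 for Ngp. The combination mice had log2 fold changes of -2.05 and -1.46 (adjusted p = 0.129 and 0.383), with 1 mouse apart from the rest. Ltf was at 1.9, 1.16, 0.109 and 27.5 CPM in them and Ngp at 2.31, 2.48, 0.0546 and 78.2 CPM, so that combination mouse 4 lay near or above the control mice and the other mice far below them. The summed granule level was 11.5, 16.7, 5.13 and 198.3 CPM in the combination mice. It was 285.0 to 384.6 CPM in the control mice and 103.2 to 300.7 CPM in the KN046 mice. Lcn2, which hepatocytes also transcribe, made up 85.3 to 285.5 CPM of the KN046 sums, so these sums mainly follow Lcn2.

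As examples of promoters from the granule list, chosen after the values were seen, the 250 bases before the RefSeq start (GRCm38.p6) of Ltf, at chr9:111019042-111019291 on the plus strand, and of Ngp, at chr9:110419558-110419807 on the plus strand, are given with matches to a C/EBP-type site in capitals. C/EBP factors are known regulators of granule genes. The letters searched were TTGCNNAA on both strands.
Ltf: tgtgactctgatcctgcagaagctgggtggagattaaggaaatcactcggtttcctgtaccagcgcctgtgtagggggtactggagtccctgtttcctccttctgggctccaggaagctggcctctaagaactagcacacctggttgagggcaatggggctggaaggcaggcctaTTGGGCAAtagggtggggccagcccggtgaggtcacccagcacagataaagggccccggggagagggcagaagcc
Ngp: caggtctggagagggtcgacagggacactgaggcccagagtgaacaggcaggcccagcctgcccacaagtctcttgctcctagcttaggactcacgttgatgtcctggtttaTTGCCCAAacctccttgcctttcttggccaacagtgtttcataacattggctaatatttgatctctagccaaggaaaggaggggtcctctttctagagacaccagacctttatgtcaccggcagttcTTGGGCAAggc
Ltf held 1 match, 75 bases before the start, and Ngp 2, the nearer one 11 bases before it. Of the 13 granule genes with a listed promoter 5 held a match (38.5%), Ltf and Ngp among them, against 9.55% of all 27025 promoters.

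T cell genes were lower with KN046. Of the 22 genes of the T cell receptor complex, co-receptors and signaling 10 fell and none rose (median log2 fold change -1.41). In 14 every KN046 mouse was below every control mouse, and 21 genes had a log2 fold change below 0. Over all genes tested 2.40% were called lower, and 6.65% had every KN046 mouse below every control mouse. The 10 included the CD3 chains Cd3d, Cd3e, Cd3g and Cd247, the CD8 chains Cd8a and Cd8b1, the kinase Lck, the adaptors Lat and Lcp2 and the transcription factor Bcl11b. Cd8a, the co-receptor of cytotoxic T cells, was at 10.7, 10.2, 11 and 9.72 CPM in control and at 3.84, 5.83, 2.24 and 3.59 CPM in KN046 mice. All 4 KN046 mice were below all 4 control mice, with mouse 2 the closest. The log2 fold change of Cd8a was -1.42 ± 0.29, with an adjusted p of 0.0237.

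Cd8b1 averaged 3.95 ± 0.716 CPM in control and 0.906 ± 0.443 with KN046 (-2.11, adjusted p = 0.0166), and Cd3g 6.81 ± 1.14 and 1.89 ± 1.14 CPM (-1.84, adjusted p = 0.0166). Bcl11b (ENSMUSG00000048251, GRCm39 chr12:107876656-107970417), which maintains T cell identity, fell most of the list, from 1.93 ± 0.579 to 0.206 ± 0.101 CPM (-3.18 ± 0.46, adjusted p = 0.00504), and passed with any 1 mouse left out. Cd4, which macrophages also express, was at 3.14 to 7.95 CPM in control and 1.39 to 5.01 with KN046 and did not pass (adjusted p = 0.177). Tcf7 was the exception in direction, at 40.2 ± 6.74 and 44.6 ± 3.42 CPM (log2 fold change 0.15, adjusted p = 0.502).

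Among 20 activation and exhaustion genes 5 fell, the receptor Pdcd1, the costimulator Cd27, the interleukin-2 receptor chain Il2ra, the transcription factor Tbx21 of type 1 responses and the homing receptor Cxcr6 (log2 fold changes -1.34 to -2.30). Il2ra was also the 1 call among 10 regulatory T cell genes. Foxp3, which marks regulatory T cells, was at 1.17 to 3.46 CPM in control and 1.17 to 3.09 with KN046 (-0.27, adjusted p = 0.769). The summed level of the 22 T cell genes was 131.1 to 146.6 CPM in control mice and 73.0 to 98.4 CPM in KN046 mice. B cell genes did not follow, with 0 of 14 called and a median of 0.22.

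Some genes of killing fell with the T cell genes. Of 18 cytotoxic granule and killer cell genes tested 6 fell and none rose, with a median of -0.73. Of the 18, 13 were below 0 and 5 above. Gzmb, which encodes granzyme B, was at 9.75, 10.7, 9.79 and 11.1 CPM in control and 3.62, 3.6, 0.894 and 1.66 CPM in KN046 mice. The groups were separate, and mice 3 and 4 were the lowest of the KN046 group. The log2 fold change of Gzmb was -2.07 ± 0.47, with an adjusted p of 0.0289. Nkg7, which acts in granule release, fell from 6.96 ± 0.727 to 1.64 ± 0.774 CPM (-2.07 ± 0.33, adjusted p = 0.0102), Prf1, which encodes perforin, from 6.05 ± 1.1 to 2.19 ± 0.588 (-1.46, adjusted p = 0.0458), and the natural killer receptor gene Klre1, Cd160 and Serpinb9, an inhibitor of granzyme B, by 2.21, 2.21 and 0.79 on the log2 scale. Ifng itself was under the filter, with 13 counts in the 4 control mice and 2 in the 4 KN046 mice.

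With the 8 mice alone 4 of the 22 T cell genes and 3 of the 18 killing genes still passed, with the control pairs merged 0 of each in edgeR and 7 and 2 in DESeq2. The summed level of the hepatocyte markers was 18535 to 22111 CPM in control and 11186, 22486, 23545 and 16739 CPM in KN046 mice. The lowest T cell sum, of KN046 mouse 1, came with the lowest hepatocyte sum, and the next lowest, of mouse 3, with the highest. Tcf7, at 44.6 CPM on average with KN046, made up much of these T cell sums. By the mean log2(CPM + 1) of the T cell genes mouse 3 was the lowest, with 1.24, 1.662, 1.162 and 1.544 in KN046 mice 1 to 4. With a hepatocyte score as a covariate in the 8 mice, 4 genes were called higher and 28 lower over the whole table.

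**Figure D3:**
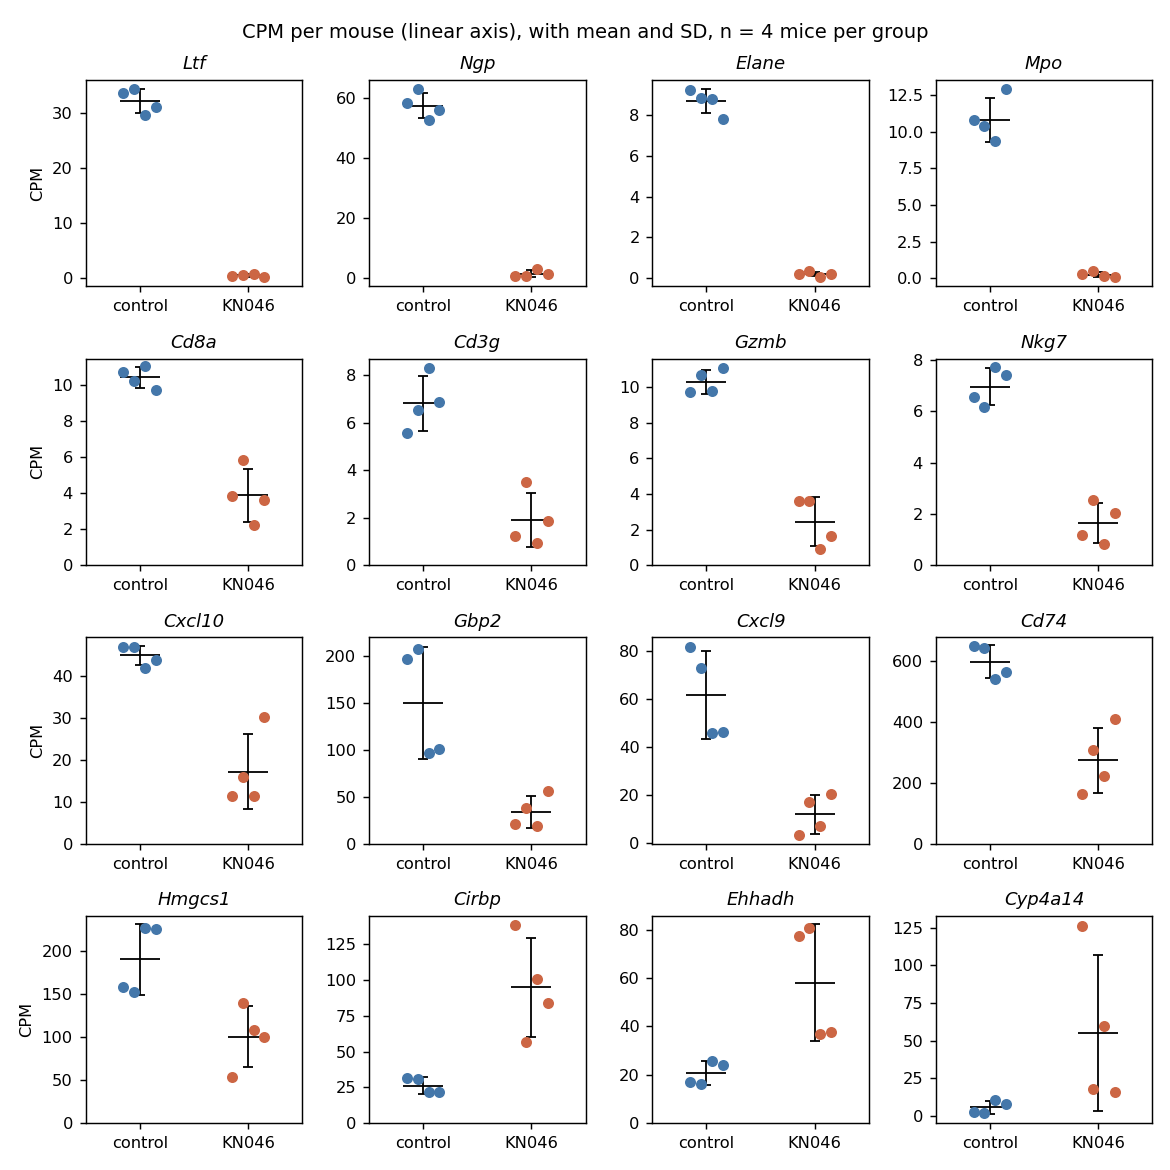
Each panel gives the CPM of 1 gene in the 4 control (blue) and 4 KN046 mice (orange), with the mean as a horizontal line and the SD as whiskers, on a linear axis. In the neutrophil, T cell, killing, interferon-γ, antigen presentation and Hmgcs1 panels every KN046 mouse is below every control mouse, and for Cirbp, Ehhadh and Cyp4a14 every KN046 mouse is above.

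The interferon-γ response was lower in the KN046 metastases across its list. All 28 listed genes were tested, 16 fell, none rose, all 28 were below 0, and the median log2 fold change was -1.55. Their summed level was 1787.7, 1755.4, 1204.5 and 1210.2 CPM in control and 371.7, 787.1, 369.6 and 750.4 CPM in KN046 mice. Both groups split into a higher and a lower pair of mice, and the groups did not overlap. Gbp2 (ENSMUSG00000028270, GRCm39 chr3:142326349-142343779), a guanylate-binding protein of cell-autonomous defense, gave 196.8, 207.0, 96.7 and 100.8 CPM in control and 21.7, 38.1, 19.3 and 56.9 CPM with KN046. Its log2 fold change was -2.14 ± 0.42, with an adjusted p of 0.0187, and control mice 3 and 4 lay near 100 CPM, below control mice 1 and 2.

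Cxcl9, a ligand of CXCR3 that attracts activated T cells, was at 46.1 to 81.9 CPM in control and 3.62 to 20.5 CPM with KN046 (-2.35 ± 0.45, adjusted p = 0.017), and Cxcl10 at 41.9 to 46.7 and 11.3 to 30.1 CPM (-1.38, adjusted p = 0.0239). The GTPases Tgtp1, Tgtp2 and Igtp fell by 2.82, 2.35 and 2.00 on the log2 scale and Gbp5 by 2.03. Irf1, a transcription factor of the response, fell from 131.0 ± 10.7 to 53.8 ± 32.9 CPM (-1.28, adjusted p = 0.04). Tgtp1 and Tgtp2, and the Gbp genes among themselves, are near copies, so reads may be split between them, and Tgtp1 and Igtp overlap Gm12185 and Irgm2 on the same strand.

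The promoters of Gbp2, Igtp and Tgtp1, genes with large falls on this list that were chosen after the values were seen, show the letters of the elements through which interferon acts. The 250 bases before the RefSeq start (GRCm38.p6) were taken for Gbp2 at chr3:142620413-142620662 on the plus strand, for Igtp at chr11:58199306-58199555 on the plus strand and for Tgtp1 at chr11:48992247-48992496 on the minus strand. Capitals mark matches on either strand to the interferon-stimulated response element, which is GAAA, any 2 bases and GAAA again, and to the gamma-activated site TTCNNNGAA.
Gbp2: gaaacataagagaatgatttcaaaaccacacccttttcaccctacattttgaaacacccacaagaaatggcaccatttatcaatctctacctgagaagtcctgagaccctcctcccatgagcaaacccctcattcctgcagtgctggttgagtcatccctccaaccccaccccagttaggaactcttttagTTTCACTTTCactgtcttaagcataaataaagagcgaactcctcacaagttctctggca
Igtp: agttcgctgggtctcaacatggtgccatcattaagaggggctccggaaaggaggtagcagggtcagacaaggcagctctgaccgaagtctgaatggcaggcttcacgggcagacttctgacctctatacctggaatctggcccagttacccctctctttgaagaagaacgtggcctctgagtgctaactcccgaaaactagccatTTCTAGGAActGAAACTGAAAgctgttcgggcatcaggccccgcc
Tgtp1: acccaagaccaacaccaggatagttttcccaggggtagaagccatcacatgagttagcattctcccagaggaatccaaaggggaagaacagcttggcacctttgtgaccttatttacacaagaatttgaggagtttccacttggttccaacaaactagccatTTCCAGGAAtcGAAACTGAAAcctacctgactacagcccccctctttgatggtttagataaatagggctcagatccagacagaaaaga
In Igtp and Tgtp1 the gamma-activated site lay directly before the response element, 45 and 34 bases before the start in Igtp and 88 and 77 in Tgtp1. In Gbp2 only the response element matched, 59 bases before the start. Of the 16 list members with a listed promoter 12 (75%) held the response element and 8 (50%) the gamma-activated site, against 3.04% and 7.18% of all 27025 promoters; the list was written of known interferon targets.

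Antigen presentation genes fell in both classes. Of the 12 MHC class II genes 6 fell (median -1.09), and all 12 were below 0. Cd74, the invariant chain, was at 647.2, 641.7, 540.3 and 562.1 CPM in control and 163.4, 307.1, 221.5 and 408.5 CPM in KN046 mice. KN046 mouse 4 was nearest to control, without overlap. The log2 fold change of Cd74 was -1.12 ± 0.29, with an adjusted p of 0.0428. The chains H2-Aa, H2-Ab1 and H2-Eb1 fell by 1.19, 1.23 and 1.15 on the log2 scale, H2-DMa by 1.06, and Ciita, the transactivator of the class, by 1.94.

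Of the 19 MHC class I genes 6 fell, all of them subunits or activators of the immunoproteasome (Psmb9, Psmb10, Psme1, Psme2) or parts of the peptide loading machinery (Tap2, Tapbp). Psmb10 fell from 81.5 ± 7.55 to 34.3 ± 9.41 CPM (-1.25 ± 0.18, adjusted p = 0.00452), and Psmb9 from 55.8 ± 2.37 to 27.2 ± 2.64 CPM (-1.04, adjusted p = 0.0166). The heavy chain H2-K1 (1952.8 ± 324.8 and 1577.6 ± 185.1 CPM, adjusted p = 0.316) and the light chain B2m (1526.8 ± 280.6 and 1362.6 ± 219.8 CPM, adjusted p = 0.626) did not pass.

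Genes better known as targets of type I interferon did not follow the interferon-γ genes as a list. Of 24 tested, Zbp1 fell (-1.39, adjusted p = 0.0498), Ifit2 rose (0.62, adjusted p = 0.0336) and the median was -0.15. Of the 30 chemokine genes 6 fell and none rose, namely Cxcl9, Cxcl10, Ccl5, Ccl7, Cxcl16 and Ccl1. Ccl5, which attracts T cells and natural killer cells, was at 9.59 to 11.5 CPM in control and 2.24 to 5.06 CPM with KN046 (-1.34, adjusted p = 0.0322). Ccl1 had at most 0.312 CPM in any KN046 mouse. Of 17 chemokine receptors Cxcr6 and Cxcr4 fell, and of 38 interleukin and interleukin receptor genes Il1b, Il2ra, Il21r and Il10rb did. Il1b, the interleukin-1β gene, went from 20.2 ± 6.72 to 4.41 ± 3.38 CPM (-2.19, adjusted p = 0.0458). Of 16 NF-κB targets Il1b, Bcl3 and Cd40 fell. With the control pairs merged edgeR called 0 members of the interferon-γ and MHC lists, and DESeq2 called 7 of the 28 interferon-γ genes, 3 of the 19 class I genes and 0 of the 12 class II genes.

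**Figure D4:**
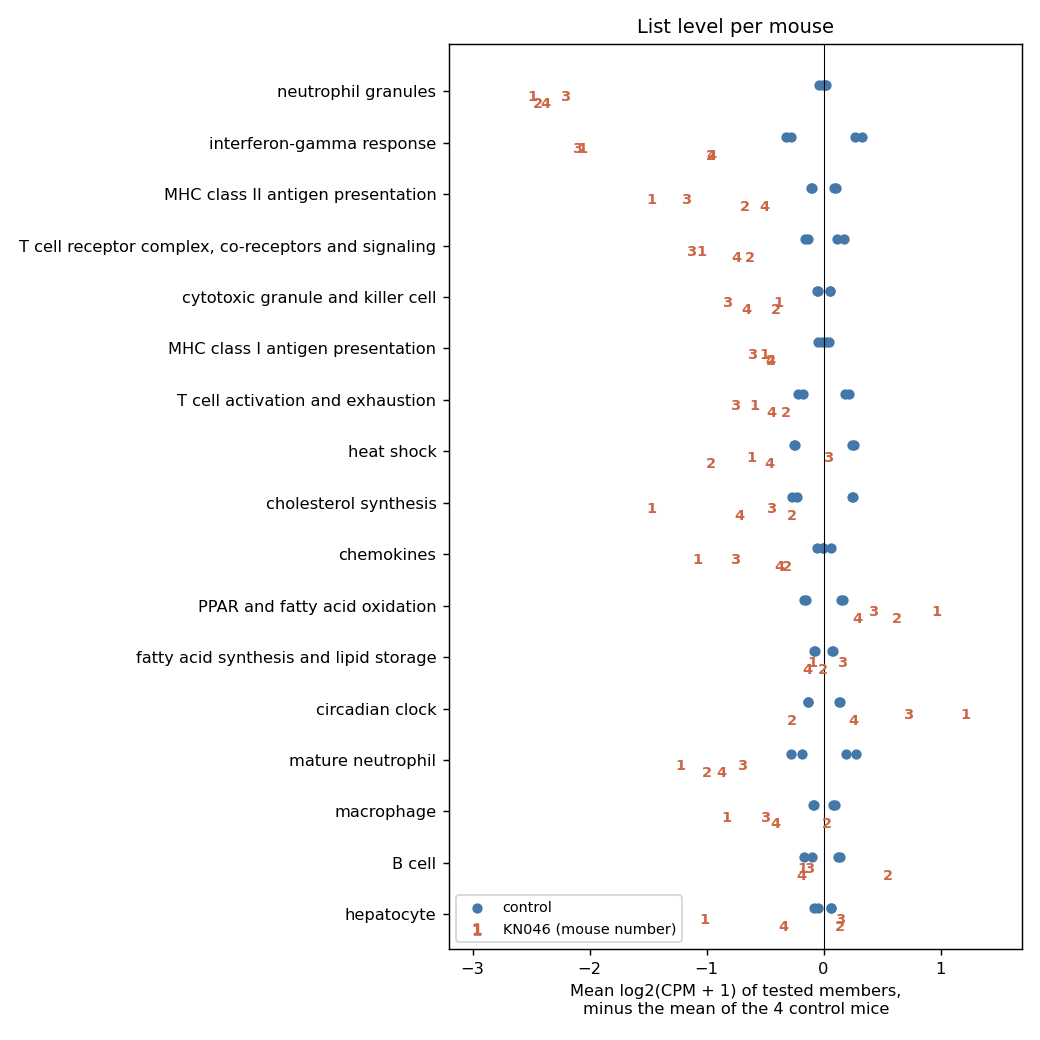
Each row is a gene list, and the x axis gives the mean log2(CPM + 1) of its tested members minus the mean of the 4 control mice. Blue points are control mice and orange numerals KN046 mice 1 to 4. All 4 KN046 mice lie left of the control mice for the neutrophil granule, interferon-γ, MHC class II, T cell and cytotoxic lists, and the groups overlap for the hepatocyte list.

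The genes of the antibody's own targets were measured in the same tissue. Cd274, which encodes PD-L1 and is itself an interferon target, was at 16.3, 17.7, 9.43 and 10.7 CPM in control and 7.25, 6.51, 6.37 and 8.37 CPM in KN046 mice. No KN046 mouse reached the lowest control mouse, but the difference did not pass (log2 fold change -0.93 ± 0.29, adjusted p = 0.0766). Ctla4 was at 0.941 to 3.64 CPM in control and 0.583 to 4.8 CPM with KN046 (-0.13 ± 0.58, adjusted p = 0.915). Pdcd1, the gene of PD-1, was at 5.73, 5.59, 5.22 and 5.23 CPM in control and 1.33, 2.97, 1.45 and 2.81 CPM in KN046 mice. It was the only member of this 9-gene list to pass in the 16-mouse edgeR fit (-1.34 ± 0.28, adjusted p = 0.0232). In that fit 6 of the 9 were lower at an unadjusted p under 0.05, and DESeq2 over 16 mice called 3 lower. With the control pairs merged edgeR called 0 of the 9 and DESeq2 called 1. The ligands Pdcd1lg2, Cd80 and Cd86 and the receptors and ligands Cd28, Icos and Icosl had log2 fold changes from -1.97 to -0.25 and adjusted p-values from 0.119 to 0.557.

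Of the proteins that the study stained or sorted, the transcripts Cd8a and Gzmb fell, as given above. Ptprc, the leukocyte marker CD45, was at 86.3, 87.2, 42.0 and 40.1 CPM in control and 21.3, 50.6, 23.4 and 30.2 CPM with KN046 (log2 fold change -1.03, adjusted p = 0.0644), with KN046 mouse 2 inside the control range. The fibroblast genes Fap, Acta2, Pdgfra and Postn averaged 0.864, 53.3, 91.6 and 45.4 CPM in control and 0.937, 44.1, 106.8 and 44.3 CPM with KN046, with adjusted p-values of 0.369 to 0.945. Cxcl12 (49.1 ± 6.34 and 42.2 ± 9.13 CPM) and Il6 (0.244 ± 0.168 and 0.448 ± 0.388 CPM) did not pass either. Tagln was under the filter, with 6 counts in control and 12 with KN046.

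Stromal lists held few calls. Of 30 fibroblast and matrix genes 1 fell, Thy1 (22.4 ± 1.46 to 11.4 ± 2.79 CPM, -0.97, adjusted p = 0.0303), a surface protein that T cells also carry in the mouse. Of 26 genes of TGF-β ligands, receptors and SMADs 1 rose, Ltbp4, which holds latent TGF-β in the matrix (926.3 ± 34.3 to 1428.2 ± 322.3 CPM, 0.62 ± 0.14, adjusted p = 0.0267). Of 10 sinusoidal endothelial genes 1 rose, Lyve1 (12.6 ± 5.38 to 31.3 ± 8.92 CPM, 1.31, adjusted p = 0.0404). The lists of TGF-β response, contractile, stellate, mesothelial, pan-endothelial, macrophage, Kupffer cell, B cell, plasma cell, erythroid, platelet, hepatocyte, epithelial, mesenchymal transition, cell cycle, hypoxia, immediate early, oxidative phosphorylation, ribosomal protein and mitochondrial genes held 0 calls in edgeR. DESeq2 over the same mice called 0 to 2 members of each, and 0 to 7 members of each had an unadjusted p under 0.05 in edgeR. The Kupffer cell sum was 195.4 to 409.6 CPM in control and 64.1, 491.6, 226.6 and 186.8 CPM with KN046.

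**Figure D5:**
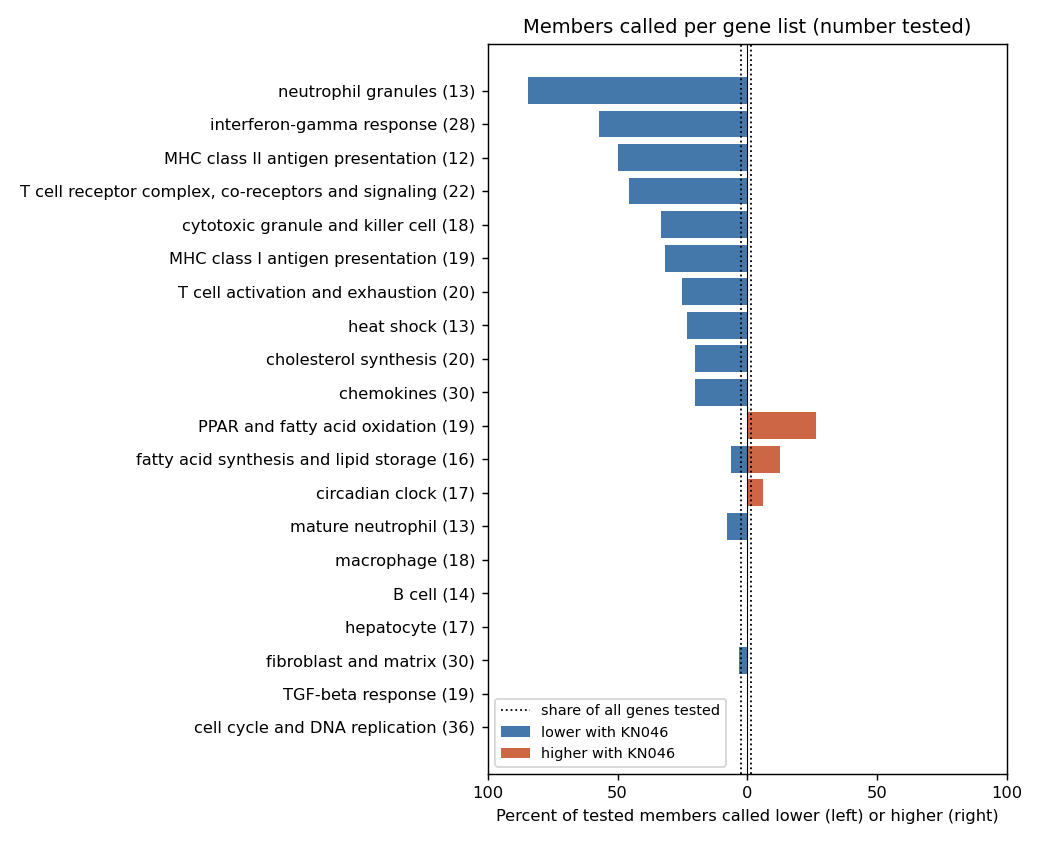
Bars give the percent of tested members of each list (number tested in brackets) called lower (left, blue) or higher (right, orange) with KN046, and dotted lines the share among all 13968 genes, 2.40% lower and 1.60% higher. The neutrophil granule list reaches 11 of 13 members and the interferon-γ list 16 of 28 on the lower side, and only the fatty acid oxidation list reaches 5 of 19 on the higher side.

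Genes of fatty acid oxidation rose, most of them known targets of the nuclear receptor PPARα. Of the 19 tested 5 rose and none fell, with a median of 0.24. Cyp4a14 (ENSMUSG00000028715, GRCm39 chr4:115343397-115353344), a fatty acid ω-hydroxylase, was at 2.41, 1.66, 10.1 and 8.05 CPM in control and 126.5, 17.6, 59.9 and 15.4 CPM in KN046 mice. KN046 mouse 1 was the highest and mouse 4 the lowest, above every control mouse. The log2 fold change of Cyp4a14 was 3.31 ± 0.68, with an adjusted p of 0.0232. Pdk4, which encodes a pyruvate dehydrogenase kinase, rose from 4.03 ± 0.517 to 17.5 ± 18.5 CPM (2.12, adjusted p = 0.0316). It was at 44.7 CPM in KN046 mouse 1 and at 5.06 to 13.6 CPM in the other KN046 mice. Ehhadh, of peroxisomal β-oxidation, gave 17, 15.9, 25.6 and 24 CPM in control and 77.3, 80.7, 36.8 and 37.8 CPM with KN046 (1.5 ± 0.32, adjusted p = 0.0239), and Cpt1a, the carnitine transferase that admits fatty acids, and Acadl rose by 0.78 and 0.47 on the log2 scale.

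Of 16 genes of fatty acid synthesis and lipid storage, the droplet proteins Cidec (0.545 ± 0.081 to 5.14 ± 6.13 CPM, 3.23, adjusted p = 0.04) and Plin5 (3.84 ± 0.931 to 10.9 ± 4.58 CPM, 1.5, adjusted p = 0.0356) rose, and the desaturase Scd1 fell. Scd1 was at 1476.0, 1459.2, 512.8 and 518.9 CPM in control and 347.0, 507.2, 454.6 and 526.0 CPM with KN046, so that KN046 mouse 4 lay inside the control range and the fall (-1.11, adjusted p = 0.045) came with a gap between the control pairs. The related Cyp4a31 also rose (2.34, adjusted p = 0.0407), and reads may be shared among the Cyp4a genes. Most of these genes are expressed by hepatocytes, whose markers overlapped between the groups as given above. KN046 mouse 1, with the highest values of Cyp4a14, Pdk4 and Cidec, had the lowest hepatocyte sum. Ehhadh was highest in KN046 mouse 2, whose hepatocyte sum was 22486 CPM. The cause of these rises was not tested. With the control pairs merged 0 of the 5 oxidation genes passed in edgeR and 1 in DESeq2.

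Cholesterol synthesis genes were lower with KN046. All 20 were below 0 with a median of -0.71, and 4 fell, among them Hmgcs1, Dhcr7 and Sc5d. DESeq2 on all mice called 12 lower. With the control pairs merged 0 passed in edgeR and 0 in DESeq2. With the KN046 and control mice fitted alone 0 passed in edgeR. The summed level was 2145.5, 2192.6, 2965.4 and 2950.2 CPM in control and 1054.1, 2041.3, 1941.6 and 1629.7 CPM in KN046 mice. The control pairs were apart, and KN046 mouse 2 lay just below control mice 1 and 2. Hmgcs1, which makes the precursor of mevalonate, was at 157.8, 151.7, 226.2 and 225.5 CPM in control and 53.2, 139.0, 107.8 and 99.8 CPM with KN046 (-0.93 ± 0.23, adjusted p = 0.0376). KN046 mouse 1 was the lowest and no KN046 mouse reached a control mouse. Of 13 heat shock genes the chaperones Hsph1, Hspa8 and Dnaja1 fell by 1.0, 0.79 and 0.77 on the log2 scale. Hspa8 was at 2729.5, 2871.9, 4835.4 and 4848.2 CPM in control and 1758.9, 2126.3, 2918.6 and 2019.3 CPM with KN046, so that KN046 mouse 3 was above control mice 1 and 2.

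All 17 clock genes tested had a log2 fold change above 0, with a median of 0.68, and 1 passed. Bmal1 and Npas2 were near 0, at 0.0 and 0.04. The summed clock level was 480.2 to 619.3 CPM in control and 1721.6, 457.4, 1156.1 and 702.0 CPM in KN046 mice. For the list as a whole KN046 mouse 2 was thus below every control mouse, and mouse 1 was the highest. Per1, a light- and glucocorticoid-responsive clock gene, was at 102.2, 102.4, 38.4 and 39.9 CPM in control and 590.7, 96.4, 297.0 and 131.7 CPM in KN046 mice. KN046 mouse 2 was below control mice 1 and 2, and mouse 1 was far above all. Its log2 fold change was 1.98 ± 0.50, with an adjusted p of 0.0401. The time of day of tissue collection is not given in the sources used here.

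Cirbp, which encodes a cold-inducible RNA-binding protein, rose with the lowest adjusted p of the 15 largest rises. The gene (ENSMUSG00000045193, GRCm39 chr10:79997069-80008626) was at 31.5, 30.7, 21.3 and 21.4 CPM in control and 138.8, 56.5, 100.5 and 83.9 CPM in KN046 mice. All 4 KN046 mice were above all control mice, and mouse 2 was the lowest. The log2 fold change of Cirbp was 1.85 ± 0.22, with an adjusted p of 0.00196, and it passed with any 1 mouse left out. Other large rises were those of Mfsd2a, a lipid transporter (4.73 ± 1.54 to 27.1 ± 21.7 CPM, 2.51, adjusted p = 0.0239), Egf (1.32 ± 0.23 to 4.25 ± 1.99 CPM, 1.68, adjusted p = 0.0177) and the leptin receptor Lepr (1.48, adjusted p = 0.0482). Rasd1, which overlaps Med9 on the opposite strand, and the low genes Or8b53, 1810010H24Rik and Esyt3 rose by 2.47, 2.15, 1.63 and 1.44 on the log2 scale.

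Among the largest falls outside the immune lists were Chrna4, a nicotinic receptor subunit (1.77 ± 0.979 to 0.186 ± 0.149 CPM, -3.23, adjusted p = 0.0166), Cyp26a1, which degrades retinoic acid (3.18 ± 1.37 to 0.334 ± 0.161 CPM, -3.21, adjusted p = 0.0151), and Car3, a carbonic anhydrase of liver, muscle and fat (-3.03, adjusted p = 0.0299). Cd177, a neutrophil surface protein, fell by 3.94 on the log2 scale. Of 17 acute phase genes Orm2, which encodes an α1-acid glycoprotein, fell, from 102.5 ± 24.3 to 19.0 ± 10.6 CPM (-2.44 ± 0.40, adjusted p = 0.0113), and the other 16 did not pass. Its near copies may share reads. In several other lists 1 gene fell. These were C1ra (-0.57) of 23 complement genes, Aldoc (-1.03) of 19 glycolysis genes and Sdf2l1 (-1.09) of 22 unfolded protein response genes. Fas (-1.24) fell of 16 p53 targets and Bst2 (-0.50) of 14 dendritic cell markers. Of 33 clustered histones 1 rose (H1f5, 1.59). Over all genes tested 2.40% were called lower and 1.60% higher. The inflammatory fibroblast list, of 16 genes tested, held the fall of Ccl7 alone.

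The KN046 mice were also set against the SB525334 mice in the same fit. The same KN046 mice thus enter this comparison and the one with control. KN046 was higher for 1882 genes (13.5%) and lower for 905 (6.48%). Liver RNA differed between these groups, with Alb at 8342.4 CPM with KN046 and 535.0 CPM with SB525334, and its part in the higher calls was not tested. Of the 335 genes called lower against control, 162 were also called lower against SB525334, 15 were called higher and 158 did not pass. Of the 224 called higher, 150 were also called higher, 0 lower and 74 did not pass. The genes compared below were all called against control. Chance extremes in the KN046 mice would move both comparisons the same way, so these differences are not an independent check. Bcl11b was lower with KN046 than with SB525334 by a log2 difference of -2.62 (adjusted p = 6.5e-04), Psmb10 of -0.99 (adjusted p = 6.5e-04) and Nkg7 of -1.21 (adjusted p = 0.0149). Cxcl9, Cd74 and Cd8a were lower by log2 differences of -1.58, -1.05 and -0.94, with adjusted p-values of 0.0187, 0.0177 and 0.0325.

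For Ltf and Gbp2 the log2 differences between KN046 and SB525334 were 1.79 and -1.09 and did not pass, with adjusted p-values of 0.431 and 0.0681. Cirbp was higher with KN046 than with SB525334 by 1.78 on the log2 scale (adjusted p = 1.7e-05). Against control, which both treatments share, SB525334 gave log2 fold changes of -0.48 for Cd8a, -0.86 for Nkg7, -1.05 for Gbp2 and 0.07 for Cirbp, none of which passed. The median log2 fold change of the interferon-γ list was -1.55 with KN046, -0.99 with SB525334 and -0.04 with the combination, all against the same 4 control mice.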

How the data were processed

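RNA of tumor tissue from liver metastases of 16 mice was sequenced on an Illumina instrument. The raw counts per gene that the authors deposited were used here. The submitters' processing notes name Cutadapt 2.7 for trimming, HISAT2 2.2.1 with GRCm39 for alignment and HTSeq 2.0.4 for counting. The deposited values normalized with DESeq2 1.38.3 were not used. How strand and multiply aligned reads were treated is not given in the sources used here, so overlapping genes and near copies are uncertain. No count row lacked a gene identifier, and 21770 of 21959 identifiers are in GENCODE M39, from which symbols and coordinates were taken.

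In R 4.3.3, edgeR 4.0.16 fitted a quasi-likelihood model to the 4 groups of 16 mice after TMM scaling and filterByExpr with a minimum count of 10, and p-values were adjusted by Benjamini-Hochberg at 0.05. All tests were two-sided. CPM values use the TMM-scaled library size, and standard errors were derived from the F statistic. Intervals cover counting error only, and p-values measure the spread between these samples. Gene lists were described by counts and medians and not tested. The members, lists and rules were chosen with earlier results of these data known.

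The genes named were the 15 largest rises and 15 largest falls among called genes whose group means reached 1 CPM in either group and whose mice did not overlap, the called members of each list (or the 6 with the largest change), all antibody targets and stained proteins, and the highest markers of each cell type. Some genes that the rule names are not reported here. Cd3e, Lck, S100a8, Irf1, Foxp3, H2-K1 and B2m were added after their values were seen. Motifs were searched in Python 3.11.15 in RefSeq promoters of GRCm38.p6, at the first listed start of each gene, and 16 of 28 interferon-γ genes and 13 of 14 granule genes had an entry.

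The alternatives were RLE and upper quartile scaling, TMM without liver genes, other filters, DESeq2 1.42.0, the 8 mice alone, the close control pairs merged, a replicate block, hepatocyte score as covariate, thresholds as in the study, and each mouse left out. The pipeline was tested on simulated data.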

Additional observations from a re-analysis of the deposited data

Results flagged for a closer look

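Over 246 sets of 4 mice (the KN046 or control mice of 1 gene named above, as log2(CPM + 1)), 9 held 1 mouse far from the other 3, where chance alone flags about 1 in 20 sets, or 12.3. KN046 mouse 3 had Lcn2 at 285.5 CPM, against 85.3 to 98.9 in the other KN046 mice, Bcl11b at 0.0559 CPM, against 0.243 to 0.266, and Ifit2 at 22.6 CPM, against 34.6 to 34.8. KN046 mouse 1 had Cd40 at 1.6 CPM, against 2.57 to 2.77, and Fcnb at 0.107 CPM, against 0 in the other KN046 mice. KN046 mouse 4 had Ccl1 at 0.312 CPM, against 0 in the others. Among the control mice, mouse 2 had Tap2 at 42.3 CPM, against 32.5 to 33.4, and Ccl5 at 11.5 CPM, against 9.59 to 9.82, and mouse 3 had H1f5 at 1.37 CPM, against 0.732 to 0.805.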

How the results depend on the processing

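The numbers of genes called higher and lower against control, 224 and 335, stayed within 1.5 times under the other scalings and filters, DESeq2 on the 8 mice alone and the study's thresholds with DESeq2. They were 588 and 662 with DESeq2 on 16 mice, 132 higher with the study's thresholds on edgeR p-values, 12 and 63 with the 8 mice alone, and 4 and 28 with the hepatocyte covariate in the 8 mice. With the control pairs merged they were 0 and 0 in edgeR and 53 and 86 in DESeq2, and with the 8 mice alone and the pairs merged 0 and 9. With the replicate block in the 8 mice they were 28 and 116. The deviations of mice with the same number correlated by 0.01838, 0.1465, 0.07962 and 0.06473 for mice 1 to 4, so the numbers were not taken to pair the mice. With 1 mouse left out the counts ranged from 10 to 923 higher and from 11 to 1173 lower. They were 65 and 92 without control mouse 1, 38 and 66 without control mouse 2, 21 and 49 without control mouse 3 and 17 and 48 without control mouse 4. The count lower against SB525334, 905, ranged from 436 to 1422 with 1 mouse left out, with 436 and 1422 without KN046 mice 1 and 2, 585 without KN046 mouse 3, and 455, 577 and 509 without SB525334 mice 1, 2 and 4. The cause of these shifts was not tested.

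None of the 100 called genes named above changed direction under any alternative that gave a value. Of the 23 that were not called, Lcn2 (0.16), Fap (-0.27) and Postn (0.03) changed sign with the hepatocyte covariate, and with 1 mouse left out values ranged across 0 for Lcn2 (-0.69 to 0.10), Foxp3 (-0.61 to 0.02), Ctla4 (-0.84 to 0.20), Fap (-0.24 to 0.40) and Postn (-0.24 to 0.09). Merging control pairs in DESeq2 or in the 8 mice, DESeq2 on the 8 mice and the study's thresholds with DESeq2 were chosen after seeing the data.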

Other observations

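Some cell type and pathway lists with few or no calls had groups that did not overlap in their mean log2(CPM + 1) per mouse. The hepatic stellate cell list had 0 of 12 genes called, 11 above 0 and a median log2 fold change of 0.46. Its mean was 3.348 to 3.55 in control and 3.622 to 4.255 in KN046 mice. Of 23 complement genes, 22 were below 0, 1 (C1ra) was called and the median was -0.48. Their mean was 5.978 to 6.01 in control and 4.77 to 5.952 in KN046 mice, with KN046 mouse 1 the lowest. Of 6 plasma cell genes tested 0 were called and 5 were below 0, with a mean of 3.994 to 4.103 in control and 3.229 to 3.651 in KN046 mice. In edgeR 4 of the 12 stellate genes and 2 of the 6 plasma cell genes had an unadjusted p under 0.05, and DESeq2 called 1 and 2 of them. By summed CPM the groups overlapped in the stellate, complement and plasma cell lists. The stellate sum was 891.3 to 964.5 in control and 862.1 to 1466.3 with KN046. The complement sum was 3937.9 to 4418.3 and 1545.3 to 4221.1, and the plasma cell sum 362.9 to 496.9 and 390.8 to 445.3.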
